A study of Homo sapiens with 8 samples.

Results

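The 9 genes described here make or recover the building blocks of DNA: RRM1, RRM2, RRM2B, TYMS, TK1, DUT, DTYMK, DCK and SLC29A1. They were chosen by name, with earlier results of these data known, and matched by Ensembl identifier. All 9 were found among the 78932 genes of the deposited tables and among the 12618 genes with enough reads to be tested. Ribonucleotide reductase removes an oxygen from ribonucleotides to give deoxyribonucleotides. Its large subunit is encoded by RRM1 and its small subunit by RRM2, which is made for S phase, or by RRM2B, a p53 target that serves non-dividing or damaged cells. Thymidylate is then made from deoxyuridylate by the product of TYMS, or recovered from thymidine by that of TK1, while salvage of deoxycytidine starts with DCK.

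RNA 3′ ends were sequenced in HCT116, a human colorectal cancer line of epithelial origin, whose NUDT21 carries a degradation tag (dTAG). NUDT21 is the small subunit of cleavage factor Im, which binds UGUA in nascent RNA upstream of poly(A) sites. The control group was given DMSO, a solvent, and JTE-607 (4 libraries), and the treated group was given dTAGV1, a small molecule that sends tagged proteins to degradation, and JTE-607 (4 libraries). JTE-607 inhibits CPSF73, the nuclease that cuts pre-mRNA at poly(A) sites, and every library carries it, so dTAGV1 without JTE-607 was not measured here. Doses, times, and whether the tagged line is a single clone are not given in the sources used here. Nothing in the labels says that replicates came from separate cultures, so p-values measure the spread between these libraries, which may be technical.

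Libraries held 3447842 to 4291256 reads counted to genes. NUDT21 RNA lay at 28.4 to 35.0 CPM (counts per 1000000 counted reads, scaled by TMM) in the DMSO libraries and at 4.42 to 10.2 CPM in the dTAGV1 libraries; protein was not measured. Of 8 epithelial markers, 7 had a mean of at least 1 CPM in either group, VIL1 being the exception, and their summed level was 1717 to 2015 CPM with DMSO and 1382 to 1481 CPM with dTAGV1. Summed levels of 6 fibroblast markers were 15.9 to 20.8 and 11.2 to 15.9 CPM, nearly all of it COL1A1, with COL3A1, DCN and LUM at 0 counts in all libraries. The 5 leukocyte markers summed to at most 1.37 CPM in any library, and the 4 endothelial markers to at most 3.20. Reads that fit no gene made up 30.1% to 33.7% of uniquely mapped reads with DMSO and 35.9% to 37.4% with dTAGV1. This share and the summed epithelial level moved with the groups, and their part in the results below was not tested. The epithelial markers did not move as one: KRT18, KRT19 and CLDN4 fell, EPCAM rose (log2 fold change 0.28), and KRT8, CDH1 and CDX2 did not pass the test.

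With dTAGV1, 7 of the 9 genes fell, DCK rose, and RRM2B did not pass the test. RRM2, TK1 and TYMS fell to 32.5%, 33.1% and 35.2% of their DMSO level and DUT to 42.1%. RRM1, SLC29A1 and DTYMK fell less, to 53.0%, 57.7% and 61.3%. Over all tested genes, 28.5% were lower, 29.4% were higher and 57.9% were called in either direction at a Benjamini-Hochberg adjusted p under 0.05 (edgeR quasi-likelihood test), so a call alone was common. The median log2 fold change of the 9 genes was -0.91, where that of all tested genes was 0.01. A fall of more than 1 on the log2 scale was seen for 4 of the 9, where 9.23% of tested genes were called lower by that much. The CPM ranges of the groups were apart for 8 of the 9 genes (50.9% of tested genes), and of these 7 were lower with dTAGV1 (25.1% of tested genes) and 1 was higher (25.8% of tested genes). As the 9 genes were chosen with earlier results known, a gap from all tested genes can come in part from that choice. In bulk RNA, fewer cells in S phase and less RNA per cell cannot be told apart.

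**Figure D1:**
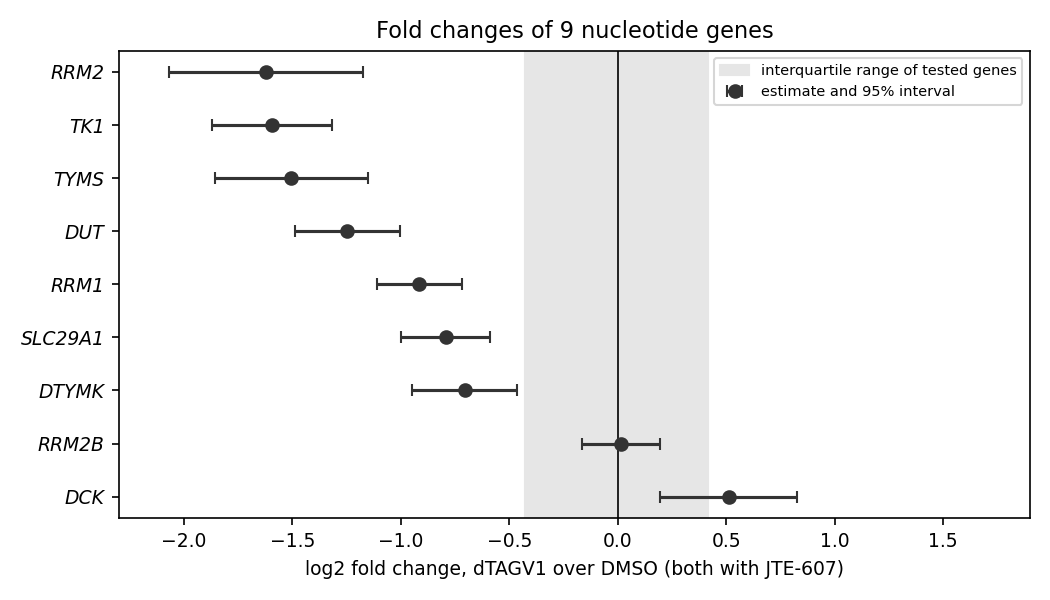
Points are log2 fold changes of the 9 genes (x axis, dTAGV1 over DMSO, both with JTE-607) and bars are 95% intervals; the grey band is the interquartile range of all tested genes, -0.43 to 0.42. The intervals of 7 genes lie wholly below the band, that of RRM2B (-0.16 to 0.19) lies inside it, and that of DCK (0.20 to 0.83) reaches past its upper edge.

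RRM1, the large reductase subunit with the catalytic and allosteric sites, is encoded on chromosome 11 (ENSG00000167325; GRCh38, 4094707 to 4138876, plus strand). Its levels were 246, 342, 328 and 267 CPM in DMSO replicates 1 to 4, and 154, 156, 142 and 174 CPM in dTAGV1 replicates 1 to 4. Every dTAGV1 library was below every DMSO library. The mean went from 296 ± 46.3 to 157 ± 12.9 CPM (SD, n = 4 each), or -0.91 in log2 units (SE 0.10; edgeR, adjusted p = 4.56e-08).

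RRM2 (ENSG00000171848; chromosome 2, 10120698 to 10131419, plus strand) encodes the small subunit that holds the radical needed for catalysis in S phase. It was measured at 226, 357, 292 and 264 CPM with DMSO, and at 77.7, 88.8, 77.2 and 124 CPM with dTAGV1. The groups did not overlap, and dTAGV1 replicate 4 stood above the other 3 libraries of its group. RRM2 fell from 285 ± 55.2 to 92.0 ± 22.2 CPM (SD, n = 4 each), or -1.62 in log2 units (SE 0.19; edgeR, adjusted p = 0.000118). Only 2.96% of tested genes had a lower log2 fold change. In GENCODE 29 it overlaps AC007240.1 on the same strand, a gene that the tables used here do not list.

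RRM2B (ENSG00000048392; chromosome 8, 102204502 to 102239118, minus strand) encodes the alternative small subunit. Levels were 110, 129, 126 and 129 CPM with DMSO and 119, 147, 114 and 122 CPM with dTAGV1, so the groups overlapped widely. Means were 124 ± 9.16 and 125 ± 14.5 CPM (SD, n = 4 each). The fitted difference of 0.02 in log2 units had a 95% interval of -0.16 to 0.19 (edgeR, adjusted p = 0.889), which does not reach the change of any of the other 8 genes. Its sign turned in 6 of 17 alternatives, none of them past the threshold.

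The make-up of the reductase transcripts thus changed. One read is counted for each captured 3′ end, so counts of different genes in a library were set against each other without a correction for length, and such ratios do not depend on scaling between libraries. RRM2 reads per RRM2B read were 2.05, 2.76, 2.31 and 2.04 with DMSO, and 0.654, 0.606, 0.675 and 1.02 with dTAGV1. RRM2 was the more abundant small-subunit transcript in all 4 DMSO libraries, and RRM2B in 3 of 4 dTAGV1 libraries, the exception being replicate 4. Reads of RRM1 per read of RRM2 went from 1.04 ± 0.0749 to 1.75 ± 0.253 (SD, n = 4 each). Against the sum of RRM2 and RRM2B, RRM1 was at 0.724 ± 0.0451 in the DMSO libraries and 0.725 ± 0.0524 in the dTAGV1 libraries (SD, n = 4 each), with ranges of 0.678 to 0.783 and 0.664 to 0.786. Capture can differ between transcripts, so these ratios describe reads and not subunits, and as ratios chosen after the values were seen they were given no test.

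**Figure D2:**
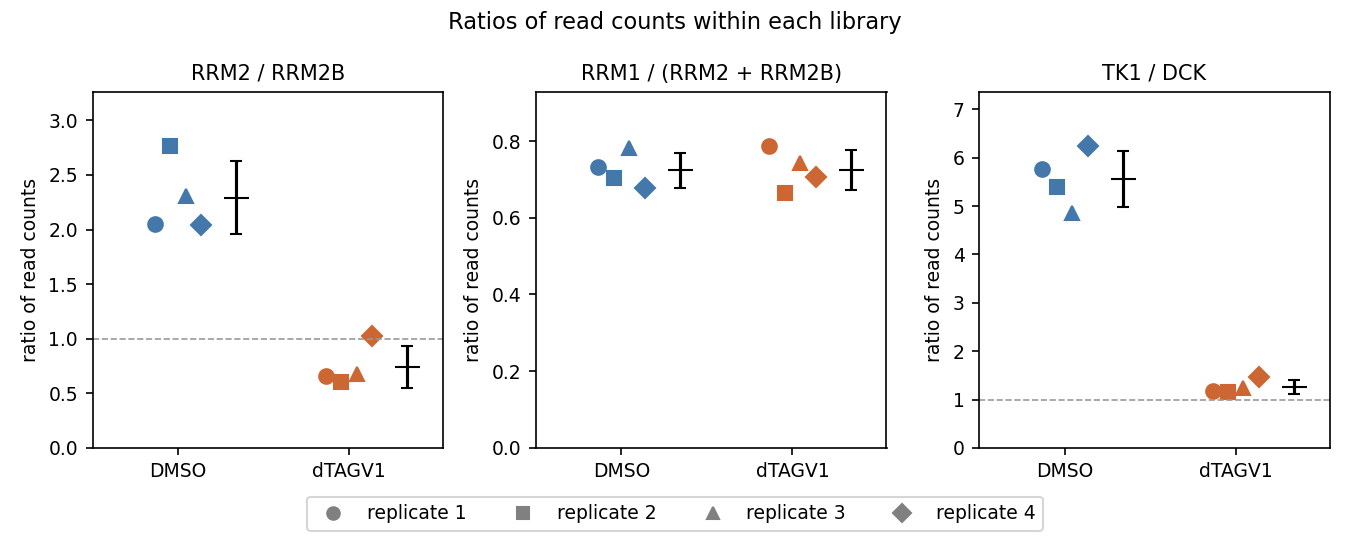
Each panel shows a ratio of read counts in 1 library (y axis, no unit) for 4 DMSO and 4 dTAGV1 libraries, with the mean and SD as a black bar and a dashed line at 1 where the axis reaches it. RRM2 per RRM2B fell from 2.29 ± 0.337 to 0.740 ± 0.191, RRM1 per summed small-subunit reads was 0.724 in DMSO and 0.725 in dTAGV1, and TK1 per DCK fell from 5.56 ± 0.583 to 1.26 ± 0.146.

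The 4 genes of thymidylate supply and dUTP removal all fell. TYMS (ENSG00000176890; chromosome 18, 657604 to 673578, plus strand) encodes thymidylate synthase, the target of fluoropyrimidine drugs. It lay at 77.3, 102, 110 and 94.7 CPM with DMSO and at 24.9, 35.9, 27.4 and 45.9 CPM with dTAGV1, with no overlap. The change was from 96.1 ± 13.9 to 33.5 ± 9.48 CPM (SD, n = 4 each), or -1.50 in log2 units (SE 0.16; edgeR, adjusted p = 2.21e-06).

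TYMS has neighbours on the opposite strand, ENOSF1 at its 3′ end and TYMSOS at its start. Reads on the strand opposite to TYMS numbered 5 to 11 per library. When strand was ignored, TYMS kept 0 to 8 reads per library against 88 to 424 on its own strand, and it could not be tested. ENOSF1, which encodes a mitochondrial enolase-like protein, went from 60.4 ± 3.20 to 41.0 ± 6.36 CPM (SD, n = 4 each), or -0.56 in log2 units (edgeR, adjusted p = 9.17e-05). TYMSOS, a noncoding gene, went from 15.5 ± 2.88 to 10.7 ± 0.949 CPM (SD, n = 4 each), or -0.54 in log2 units (edgeR, adjusted p = 0.0126). Both fell less than TYMS by value, a difference that was not tested.

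TK1 (ENSG00000167900; chromosome 17, 78174075 to 78187233, minus strand) encodes the cytosolic thymidine kinase, which is removed as cells leave mitosis. Levels were 86.6, 115, 90.7 and 91.0 CPM with DMSO and 28.6, 27.2, 26.8 and 42.8 CPM with dTAGV1. Replicate 2 was the high library among the former and replicate 4 among the latter, and the groups did not overlap. TK1 fell from 95.7 ± 12.7 to 31.4 ± 7.67 CPM (SD, n = 4 each), or -1.60 in log2 units (SE 0.13; edgeR, adjusted p = 2.13e-09).

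DUT (ENSG00000128951; chromosome 15, 48331011 to 48343373, plus strand) encodes dUTPase, which keeps uracil out of DNA and yields the substrate of thymidylate synthase. Its libraries read 66.7, 89.5, 89.4 and 73.2 CPM with DMSO and 32.0, 31.1, 30.0 and 40.2 CPM with dTAGV1. All dTAGV1 libraries were lower. DUT fell from 79.7 ± 11.6 to 33.3 ± 4.64 CPM (SD, n = 4 each), or -1.25 in log2 units (SE 0.12; edgeR, adjusted p = 2.10e-09).

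DTYMK (ENSG00000168393; chromosome 2, 241675742 to 241686991, minus strand) encodes thymidylate kinase, where the de novo and salvage routes to dTTP meet. It was at 52.7, 63.9, 59.0 and 64.3 CPM with DMSO and 38.8, 37.2, 28.0 and 42.6 CPM with dTAGV1. The groups did not overlap, with dTAGV1 replicate 3 the lowest library by far. The fall was from 60.0 ± 5.40 to 36.6 ± 6.19 CPM (SD, n = 4 each), or -0.71 in log2 units (SE 0.12; edgeR, adjusted p = 1.34e-05). Per read of TK1 there were 1.01 ± 0.152 reads of TYMS in the DMSO libraries and 1.07 ± 0.187 in the dTAGV1 libraries (SD, n = 4 each), which is a smaller difference than the spread in either group.

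Among the remaining salvage genes, the transporter fell and the kinase rose. SLC29A1 (ENSG00000112759; chromosome 6, 44219505 to 44234151, plus strand) encodes ENT1, the transporter that carries nucleosides and nucleoside drugs across the cell membrane. It had the narrowest spread of the 9 with DMSO, at 63.9, 64.2, 68.3 and 68.0 CPM, and was at 39.1, 40.2, 33.0 and 40.0 CPM with dTAGV1. It fell from 66.1 ± 2.38 to 38.1 ± 3.41 CPM (SD, n = 4 each), or -0.79 in log2 units (SE 0.10; edgeR, adjusted p = 2.46e-07).

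DCK (ENSG00000156136; chromosome 4, 70992538 to 71030914, plus strand) encodes deoxycytidine kinase, which also activates drugs such as gemcitabine and cytarabine. It was the least abundant of the 9, with 55 to 88 reads per DMSO library and 74 to 123 per dTAGV1 library. Levels were 15.0, 21.2, 18.7 and 14.6 CPM with DMSO and 24.4, 23.6, 21.8 and 29.1 CPM with dTAGV1, so the highest DMSO library came close to the lowest dTAGV1 library. DCK rose from 17.4 ± 3.15 to 24.7 ± 3.11 CPM (SD, n = 4 each), 1.43-fold, or 0.51 in log2 units (SE 0.15; edgeR, adjusted p = 0.00605). The call held in all 16 alternatives in which DCK was tested, with adjusted p-values of 0.00289 to 0.0397.

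MOB1B, a Hippo pathway scaffold gene, overlaps DCK on the same strand in GENCODE 29. The overlap stops at 71022449, where MOB1B ends, and the annotated end of DCK at 71030914 lies outside it. Reads that fit several genes have their own total in the deposited counts, which was left out. MOB1B itself went from 28.4 ± 2.21 to 17.3 ± 2.54 CPM (SD, n = 4 each), or -0.71 in log2 units (edgeR, adjusted p = 0.000132). Reads of TK1 per read of DCK, the 2 deoxynucleoside kinases among the 9, were 5.76, 5.40, 4.86 and 6.24 with DMSO and 1.17, 1.15, 1.23 and 1.47 with dTAGV1. TK1 thus stayed the more abundant kinase transcript in each library, by a smaller margin with dTAGV1.

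**Figure D3:**
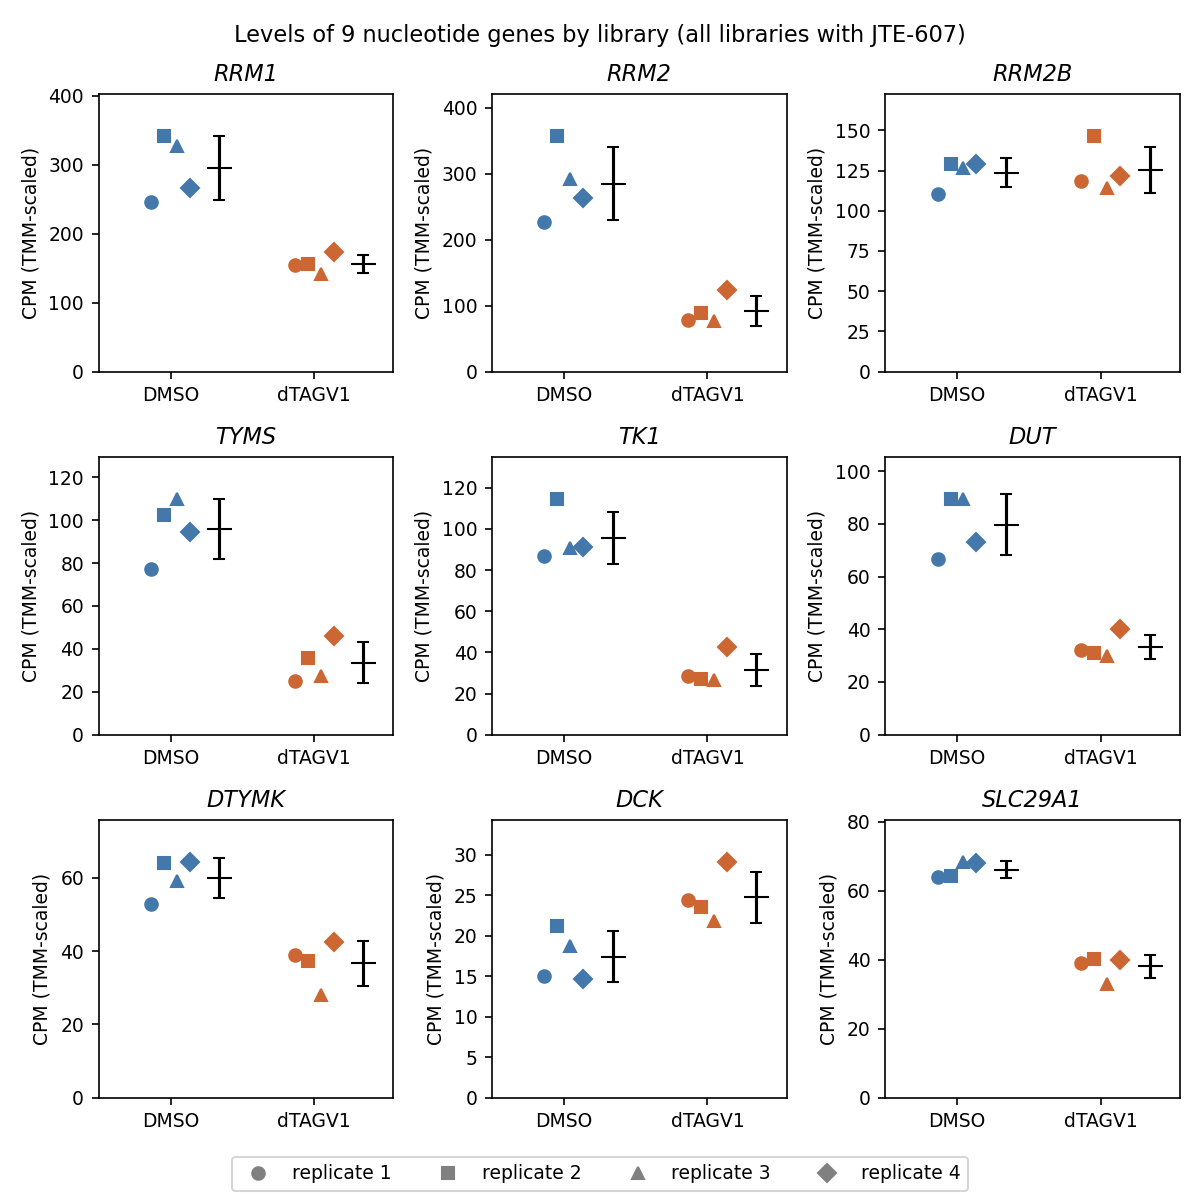
Each panel shows the level of 1 gene (y axis, TMM-scaled CPM, from 0) in 4 DMSO and 4 dTAGV1 libraries, all with JTE-607; marker shapes are replicate numbers and black bars are mean and SD. The groups are apart for all genes other than RRM2B (110 to 129 against 114 to 147 CPM), and DCK is the only gene whose dTAGV1 libraries lie higher.

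The order of the levels changed with these falls. With DMSO, RRM1 and RRM2 led at 296 and 285 CPM and overlapped each other, RRM2B followed at 124 CPM clear of its neighbours, and TYMS, TK1, DUT, SLC29A1 and DTYMK formed a run from 96.1 to 60.0 CPM in which each overlapped the next. DCK came last at 17.4 CPM. With dTAGV1 the order was RRM1, RRM2B and RRM2 at 157, 125 and 92.0 CPM, each overlapping the next. SLC29A1, DTYMK, TYMS, DUT, TK1 and DCK then ran from 38.1 down to 24.7 CPM with overlap at every step.

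Within each group most of the 9 genes, and not only those that fell, were high or low in the same libraries. DMSO replicate 1 and dTAGV1 replicate 3 were each the lowest of their group for 8 of 9 genes, and dTAGV1 replicate 4 was the highest for 7 of 9. That last library also had the lowest share of unmapped reads, 20.4%, where the other 3 of its group had 24.9% to 30.3% and the DMSO libraries 27.7% to 28.9%; the part of this in its levels was not tested. The summed level of the 7 genes that fell was 820 to 1133 CPM with DMSO and 365 to 509 CPM with dTAGV1. As these 7 were picked for having fallen in the same libraries, that gap follows from the choice. Without dTAGV1 replicate 4 the falls were larger, at -1.83 for RRM2, -1.81 for TK1, -1.73 for TYMS and -1.37 for DUT on the log2 scale. RRM2B was likewise lowest in DMSO replicate 1 and dTAGV1 replicate 3, but in dTAGV1 replicate 4 its deviation from the group mean was -0.04 on the log2 scale, whereas the other 8 genes were above theirs. Since all genes of a library share its RNA and its scaling, this is a description of 8 libraries.

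**Figure D4:**
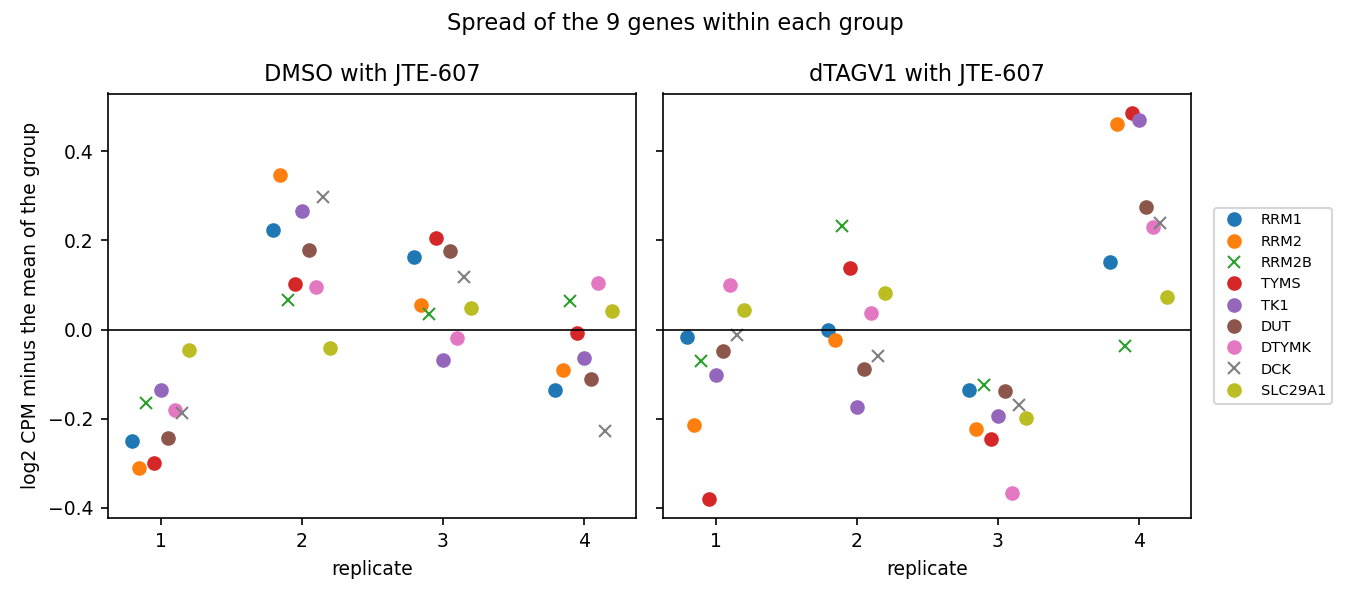
Points are log2 CPM of each of the 9 genes minus the mean of its group (y axis) for replicates 1 to 4 (x axis) of the DMSO and dTAGV1 groups; crosses mark RRM2B and DCK. In DMSO replicate 1 all 9 genes lie below 0 (-0.31 to -0.05), and in dTAGV1 replicate 3 all 9 do (-0.37 to -0.13).

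The genes whose log2 CPM followed RRM2 most closely over the 8 libraries, among 9247 other genes with a symbol and a mean of at least 10 CPM, were ESRP1 (Pearson r = 0.996), MCM3 (0.995) and GINS2 (0.994). ESRP1 encodes an epithelial splicing regulator, and MCM3 and GINS2 encode parts of the replicative helicase. Their log2 fold changes were -1.07, -1.30 and -1.54. For RRM2B they were SLC25A42 (Pearson r = 0.930), GJC1 (0.916) and ABHD14A (0.911), with log2 fold changes of -0.00, 0.02 and 0.12, none of which passed the test. The r of RRM2 is carried mostly by the difference between the groups, which ESRP1, MCM3 and GINS2 share with it. The genes named for RRM2B are the highest of 9247 over only 8 libraries. An r of this size can come from the picking alone, which was not tested.

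Promoter sequences were examined after 7 of the genes were seen to fall, and a link between motifs and the changes was not tested. RefSeq windows of 250 bases before the annotated start (GRCh38.p14) were used for 8 of the 9 genes, and some genes have several starts. No window of RRM2B was searched. CCAAT, the site of the factor NF-Y, was searched on both strands, with ATTGG as its other strand. It was present in 32.0% of 35116 windows of all genes, at least 2 times in 9.53% and at least 3 times in 2.93%. Among these 8 genes, CCAAT was found 3 times before a start of RRM2 and 1 time before its other start. It was found 2 times before one of TK1 and before that of DTYMK, and 1 time before that of RRM1. The E2F words TTTCCCGC, TTTCGCGC, TTTGCCGC and TTTGGCGC, also on both strands, were present in 2.79% of windows and at least 2 times in 0.122%. They were found 2 times before a start of DUT and 1 time before that of TYMS, and they share no bases with a CCAAT match. The shares are per window, and a gene with several windows has more chances of a match. DUT has 4 windows, and RRM2, TK1 and SLC29A1 have 2 each. SLC29A1 and DCK had neither motif in these windows, which says only that these letters are not there. The same holds for the E2F words before RRM1, RRM2, TK1 and DTYMK, and for CCAAT before TYMS and DUT.

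The matches are shown because they set RRM2, TK1 and DTYMK, with repeated CCAAT, beside DUT and TYMS, with E2F words. Each line reads 5′ to 3′ on the strand of the gene, with the match in capitals. The match before the other start of RRM2 and the second of DUT, with 42 bases from match to start, are not printed.
RRM2 (chr2:10122609-10122628, plus strand, 123 bases from match to start): ggcgcagCCAATgggaaggg
RRM2 (chr2:10122639-10122658, plus strand, 93 bases): ggcacagCCAATgggaaggg
RRM2 (chr2:10122666-10122685, plus strand, 66 bases): accaaagCCAATgggaaggg
TK1 (chr17:78187117-78187136, minus strand, 77 bases): ggcgctgATTGGccccatgg
TK1 (chr17:78187086-78187105, minus strand, 46 bases): gctcgtgATTGGccagcacg
DTYMK (chr2:241686895-241686914, minus strand, 92 bases): gccccggCCAATcccttcga
DTYMK (chr2:241686827-241686846, minus strand, 24 bases): acgccggCCAATgggagctc
RRM1 (chr11:4094650-4094669, plus strand, 28 bases): tccatatCCAATggggccca
TYMS (chr18:657608-657627, plus strand, 39 bases): acggccGCGGGAAAaggcgc
DUT (chr15:48332164-48332183, plus strand, 27 bases): ttcggtTTTGGCGCgctccc

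Because cleavage factor Im binds UGUA, the last 100 bases of each gene's principal GENCODE 29 transcript were searched for TGTA. None was found for RRM1, RRM2, DUT and SLC29A1, 1 for TYMS, TK1 and DTYMK, and 2 for RRM2B and DCK. The 2 genes that did not fall were thus the ones with 2 matches, a point noted after the values were seen. Among 10637 tested protein-coding genes, 54.1% had at least 1 match and 20.9% at least 2. By number of matches, median log2 fold changes of all these genes were -0.03 for 0, -0.03 for 1 and 0.00 for 2 or more, the shares called lower were 30.5%, 31.2% and 31.6%, and the shares called higher were 27.0%, 27.9% and 32.1%. The medians and the shares called lower were close, and the share called higher was largest in the class with 2 or more, which was not tested. The poly(A) hexamer AATAAA or its variant ATTAAA was in the last 50 bases of 7 of the 9, all but TK1 and DTYMK, and of 74.7% of these genes.

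The 30 bases around a TGTA (capitals) are given for 4 of the 5 genes that have one. RRM2B is not printed, and for DCK the nearer of the 2 to the annotated end is given. The surroundings of the matches were not compared.
TYMS (chr18:673503-673532, plus strand, 63 bases from match to end): gctttgttcattcTGTActgccacttatct
TK1 (chr17:78174107-78174136, minus strand, 49 bases): tccacgcctctgcTGTAgcttatgaaatta
DTYMK (chr2:241675797-241675826, minus strand, 72 bases): tcattgtgatcacTGTAaatggtaatcagt
DCK (chr4:71030846-71030875, plus strand, 56 bases): gacttttaaaattTGTAgaattgaaaagac
Annotated ends of these 9 genes numbered 1 for DTYMK and DCK to 6 for DUT. Which end was used in these libraries was not analysed here.

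The rest of nucleotide metabolism was followed in 72 further genes in 7 lists, of which 64 were tested. Of these, 33 were lower, 9 were higher and 22 did not pass the test, beside 28.5% lower and 29.4% higher over all tested genes. Their median log2 fold change was -0.33. The lists were also chosen with earlier results known, so a gap from all tested genes can come in part from that choice. Genes without enough reads were IMPDH2, SHMT1, PNP, CMPK2, NT5M, SLC28A1, SLC28A2 and SLC28A3.

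De novo synthesis of purines fell most evenly: 10 of 12 tested genes were lower and 0 higher, with a median log2 fold change of -0.62. GMPS, which makes GMP, fell from 62.0 ± 7.22 to 30.9 ± 3.65 CPM (SD, n = 4 each), to 49.9% of its DMSO level, and ADSS2, on the branch to AMP, from 58.8 ± 3.29 to 47.0 ± 4.98 CPM (SD, n = 4 each; -0.32). In de novo pyrimidine synthesis 3 of 5 were lower and 0 higher, with a median of -0.43. CTPS1, which makes CTP, had a log2 fold change of -0.93 and UMPS, which makes UMP, one of -0.43. ADSS2 overlaps AL645465.1 on the same strand.

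The folate cycle, which feeds carbon to thymidylate and purines, went both ways, with 4 of 7 tested genes lower and 3 higher and a median of -0.42.

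Salvage enzymes other than TK1 and DCK had 6 of 11 lower and 1 higher, with a median of -0.32. HPRT1, which recovers purine bases, fell from 31.5 ± 2.03 to 13.9 ± 0.838 CPM (SD, n = 4 each; log2 fold change -1.17). The higher one was DGUOK, the mitochondrial deoxyguanosine kinase, with a log2 fold change of 0.20 (edgeR, adjusted p = 0.0391). Its call was lost in 10 of 17 alternatives, with adjusted p-values of 0.0182 to 0.204. Among these were the fits without DMSO replicate 2, 3 or 4 (0.17, 0.21 and 0.15 on the log2 scale) and without dTAGV1 replicate 2 or 3 (0.14 and 0.19).

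Of the kinases for mono- and diphosphates 5 of 12 were lower and 2 higher, with a median of -0.32. NME2, a nucleoside diphosphate kinase, had a log2 fold change of -1.73. It overlaps the readthrough gene NME1-NME2 on the same strand in GENCODE 29 and resembles its relative NME1. Reads that fit several genes or places were left out, so this value is uncertain. NME3, of the same family, had 0.42 (edgeR, adjusted p = 0.0201). Its call was lost in 6 of 16 alternatives (adjusted p-values of 0.0136 to 0.387), including those without DMSO replicate 3 or dTAGV1 replicate 1 or 2, where it was 0.39, 0.36 and 0.32.

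Genes of breakdown and pool control had 4 of 12 lower and 3 higher, with a median of -0.14. NUDT1, which removes oxidised nucleotides, had a log2 fold change of -1.09. NT5E, the cell-surface nucleotidase CD73, rose from 153 ± 8.09 to 258 ± 21.2 CPM (SD, n = 4 each; 0.76). Of 5 tested nucleoside transporters besides SLC29A1, 1 was lower and 0 higher, with a median of -0.18. That gene was SLC29A2, the second equilibrative transporter, at 14.6 ± 5.90 and 4.45 ± 1.54 CPM (SD, n = 4 each; -1.70). Adjusted p-values of the genes named from the lists, other than DGUOK and NME3, were at most 0.00872 (edgeR).

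**Figure D5:**
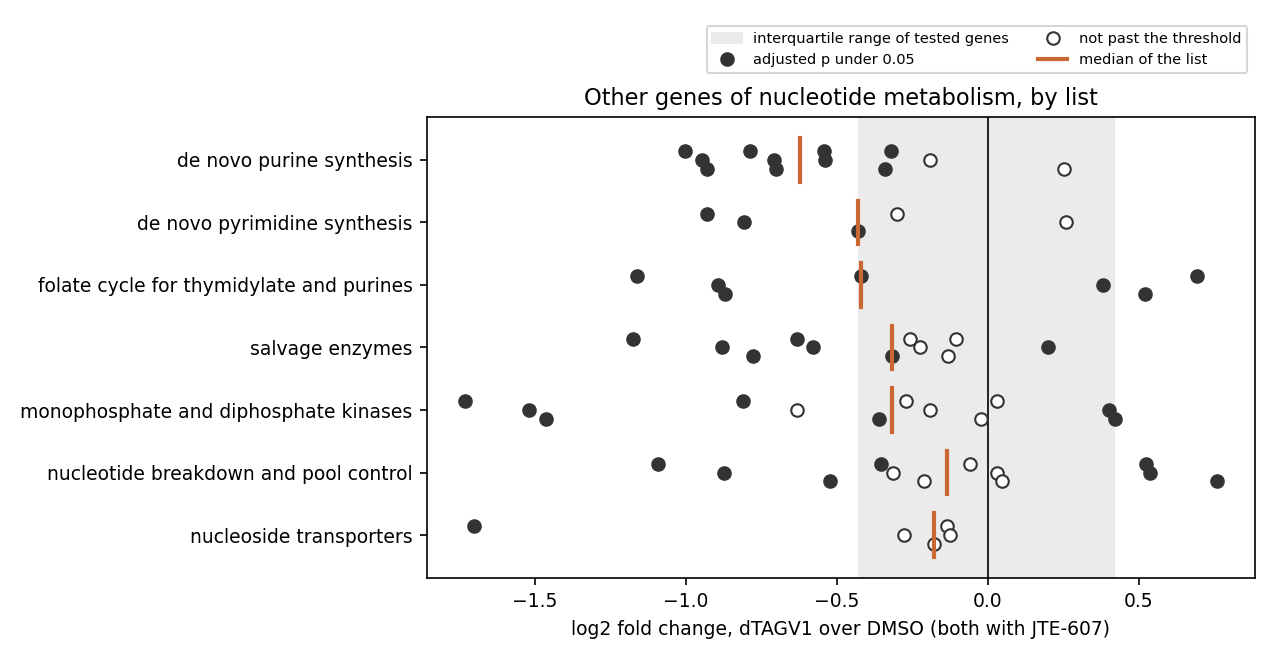
Points are log2 fold changes (x axis, dTAGV1 over DMSO, both with JTE-607) of the 64 tested genes in 7 lists of nucleotide metabolism (y axis), filled where the adjusted p was under 0.05; orange lines are list medians and the grey band is the interquartile range of all tested genes. Medians run from -0.62 for de novo purine synthesis to -0.14 for breakdown and pool control.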

How the data were processed

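The authors deposited unnormalized read counts for each gene in 8 libraries made with a forward-stranded 3′-end kit, per the labels' protocols. FastQC, fastp, STAR, HTSeq, DESeq2 and GRCh38 are named without roles or versions, per the submitters' processing notes; the annotation is not given in the sources used here. Sense-strand counts were used, and the 4 totals of reads given to no gene (56.7% to 62.8% of reads) stayed out. Coordinates were those of GENCODE 29, and symbols were looked up by Ensembl identifier.

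Genes were filtered with filterByExpr, scaled with TMM and tested with edgeR 4.0.16 in R 4.3.3 (robust quasi-likelihood F test). Benjamini-Hochberg adjustment was over 12618 genes. The method was also run on simulated data with 200 genes changed. It recovered 48.4% of tested changes of 0.5 on the log2 scale, 76.2% of those of 1 and 100% of those of 2, with 14 false calls. In the real data 7302 of 12618 genes were called, a far larger share, so these rates need not carry over. Standard errors are the absolute log2 fold change divided by the square root of F. Replicates were distinct beyond sampling noise (chi-square over degrees of freedom 1.82 to 5.09). The genes and lists were chosen with earlier results of these data known. Named list genes are the lowest and highest called of each list, some of which are not reported here. Alternatives were DESeq2 1.42.0, limma-voom (limma 3.58.1), other scalings, filters, dispersions, strand, replicate block, and leaving out each library. Figures used matplotlib 3.10.9.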

Additional observations from a re-analysis of the deposited data

Results flagged for a closer look

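In each group of 4 libraries, the library farthest from the others was compared with Dixon's 95% critical value for 4 samples, in 18 tests over the 9 genes. Of these, 4 passed, where chance flags about 1 in 20. RRM2B in DMSO replicate 1 was low at 110 CPM. TK1 in DMSO replicate 2 was high at 115 CPM, and TK1 in dTAGV1 replicate 4 was high at 42.8 CPM. SLC29A1 in dTAGV1 replicate 3 was low at 33.0 CPM. None of these libraries crossed into the range of the other group for TK1 or SLC29A1.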

How the results depend on the processing

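Of 151 alternative values for the 9 genes, 145 kept direction and side of the threshold, and the other 6 were sign changes of RRM2B, which was not called in any of them. RRM2B was -0.0591 with library-size scaling, -0.00672 without a filter, -0.00278 with a mean of at least 100 counts, -0.0131 with counts irrespective of strand, and -0.0783 to 0.0442 on leaving out each library. That last range includes -0.0409 without DMSO replicate 1 and -0.0783 without dTAGV1 replicate 2. The number of the 9 genes called was 8 in 15 of 17 alternatives. It was 7 with a mean of at least 100 counts, where DCK was not tested, and 7 irrespective of strand, where TYMS was not. Over all genes, a mean of at least 100 counts called 4120 of 6369 genes in place of 7302 of 12618, with fewer genes tested. Leaving out each library called 6861 to 7232 genes. The 72 list genes gave 30 to 44 calls in place of 42. With library-size scaling the median of all genes shifted by -0.07.

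The labels number replicates 1 to 4 in both groups and do not say what a shared number stands for. Deviations from group means of same-numbered libraries correlated at 0.131, -0.0176, 0.0232 and 0.0340. Without those of differently numbered libraries beside them, these values cannot show whether the numbers mark pairs. As the labels name no pairing, the main fit used none. With the replicate block, 7434 genes, 8 of the 9 and 43 list genes were called.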

Other observations

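Reads on the strand opposite to the 9 genes were few. Over the 8 libraries together they numbered 63 for TYMS, 28 for DTYMK, 8 for DCK, 6 for RRM2 and 2 for TK1, and 0 for RRM1, RRM2B, DUT and SLC29A1. For RRM1, reads counted irrespective of strand were 387 to 1086 per library, where its own strand held 483 to 1417, and RRM1-AS1, annotated on its other strand, had 0 reads in every library.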
